A study of Mus musculus with 12 samples.

Results

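The mouse lung adenocarcinoma cell lines KC1 to KC4 were compared for the genes of Wnt signalling. The genes were those whose single annotated symbol names a Wnt ligand, a numbered Frizzled, Sfrp1 to Sfrp5 or Dkk1 to Dkk4, together with 16 named receptors, ligases, cytoplasmic and nuclear components and targets. Of 18193 genes on the arrays, 52 met this rule. They comprised 19 Wnt ligands, 10 Frizzled receptors, 4 Sfrp and 4 Dkk genes and 15 of the 16 named genes. Tcf7 was not analysed here.

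The lines came from primary lung tumours, 6 tumours of 4 mice in all, on the background given as 127s, and the labels do not tie a line to a mouse. All share 1 genotype, K-rasLA1/+; Cdkn1a-/-, in which 1 K-ras allele can recombine to a mutant form in scattered cells and both alleles of Cdkn1a, the gene of the cell division inhibitor p21, are labelled as knocked out. By their labels KC1 to KC3 metastasise highly and KC4 poorly. For each line 3 biological replicates were measured on 1 Affymetrix array each, 12 arrays in all. Because KC4 is the only poorly metastatic line, a difference of class and a difference of this line cannot be told apart.

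Wnt ligands are secreted, lipid-modified glycoproteins that bind Frizzled receptors together with the co-receptors Lrp5 and Lrp6. In the canonical branch this stops a destruction complex built on Axin and Apc from marking beta-catenin for degradation, and beta-catenin then enters the nucleus and acts through the factors of the Tcf and Lef family. Sfrp and Dkk proteins antagonise the pathway outside the cell, and several induced genes, among them Axin2, Nkd1, Rnf43 and Znrf3, act as negative feedback. In the lung the pathway takes part in the specification and branching of the early epithelium and in the renewal of alveolar cells, and Wnt7b is an epithelial ligand of the developing airways.

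For orientation, the start-site windows of 3 genes on which the results turn are shown. Axin2 is a feedback gene that was highest in KC4, and Fzd1 and Fzd7 are the receptor pair that was highest in KC1. Each window covers 250 bases before and 50 bases after the start of the gene, from RefSeq on build GRCm38.p6, in the direction of transcription, with the first transcribed base in capitals. The windows lie at chr11:108920099-108920398 on the plus strand (Axin2), chr5:4758167-4758466 on the minus strand (Fzd1) and chr1:59481897-59482196 on the plus strand (Fzd7).
Axin2: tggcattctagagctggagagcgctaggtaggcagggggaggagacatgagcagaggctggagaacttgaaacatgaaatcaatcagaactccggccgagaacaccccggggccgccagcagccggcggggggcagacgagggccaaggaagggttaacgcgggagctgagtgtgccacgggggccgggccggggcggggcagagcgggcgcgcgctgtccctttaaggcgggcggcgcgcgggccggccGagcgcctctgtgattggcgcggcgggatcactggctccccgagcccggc
Fzd1: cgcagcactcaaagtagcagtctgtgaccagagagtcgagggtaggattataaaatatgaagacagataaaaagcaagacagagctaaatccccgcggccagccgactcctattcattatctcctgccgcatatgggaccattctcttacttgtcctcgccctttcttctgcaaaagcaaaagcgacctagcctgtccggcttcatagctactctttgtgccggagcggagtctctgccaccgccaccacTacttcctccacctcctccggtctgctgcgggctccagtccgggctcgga
Fzd7: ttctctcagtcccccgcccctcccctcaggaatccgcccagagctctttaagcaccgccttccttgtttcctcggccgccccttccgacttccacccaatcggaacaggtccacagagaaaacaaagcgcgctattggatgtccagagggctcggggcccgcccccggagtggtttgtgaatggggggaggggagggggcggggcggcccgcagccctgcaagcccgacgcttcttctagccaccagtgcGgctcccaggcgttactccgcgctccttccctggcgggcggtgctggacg

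The G and C content was 70.0% in the Axin2 window, 54.0% in that of Fzd1 and 66.7% in that of Fzd7, against a median of 52.7% over all 32851 windows of the table. Start-site windows were found for 33 of the 52 genes. The core of the binding motif of Tcf and Lef factors was searched as CTTTGAT and CTTTGAA on both strands. At least 1 of these occurred in the windows of 3 of the 33 genes, Wnt11, Wnt5b and Dkk1. The 33 genes had 42 windows, and Wnt11 and Wnt5b also had windows without a match. Over all 32851 windows the share was 8.65%, which counts windows and not genes. No match says only that these letters are not in the window.

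The targeted gene Cdkn1a has 2 probe sets. On 1 of them the mean signal was highest in KC1 at 7797 ± 457 (SD, n = 3), then 6721 ± 507 for KC3, 5898 ± 504 for KC2 and 4355 ± 478 for KC4, which taken alone goes against the labelled loss in every line. On the other the line means were 6.39 to 12.8, under 16. The sources used here do not give which stretch of the transcript each set covers or whether the deletion removes it, so the labelled genotype was not settled by these values.

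On every array 7 of 7 epithelial marker genes lay above a signal of 64. The keratins Krt8 (class difference 0.14), Krt18 (0.21) and Krt19 (0.11) were not called between the classes (limma adjusted p = 0.261 to 0.367). The others moved with KC4. Cldn4, a tight junction claudin, set KC4 apart as lower at 1268 ± 29.7 against 3210 ± 146 to 4128 ± 194, a class difference of 1.54 (SE 0.042, limma adjusted p = 2.42e-08). Cldn7 (0.98) and Epcam (0.89) were lower in KC4 by less than the minimum, while E-cadherin (Cdh1) differed by -0.39 (limma adjusted p = 0.0173), KC4 being higher. The part of these in the KC4 differences below was not tested. Of 6 measured alveolar type 2 markers, Abca3 (711 to 1016), Sftpb (112 to 457) and Sftpc (87.6 to 126) lay above 64 on every array, and Sftpa1 ran from 29.2 to 80.9. Napsa (at most 15.4) and the lineage factor Nkx2-1 stayed under 64 on every array. Nkx2-1 varied among the lines (limma adjusted p = 0.0382), with 55.6, 25.7 and 54.2 in KC4 and 5.27 to 36.2 elsewhere, and KC4 overlapped with KC3. The summed signal of 8 fibroblast markers ran from 435 to 670 in the highly metastatic lines and from 435 to 715 in KC4. Of these, Col1a2 lay above 64 on every array (131 to 217), and Col3a1 and Pdgfrb were under 64 on all arrays. Pdgfra ran from 16.5 to 184, and the highest signals of Col1a1, Dcn, Lum and Thy1 were 71.8 to 97.9. Sums ran from 355 to 547 for 5 endothelial markers and from 629 to 1349 for 6 leukocyte markers, 4 of them above 64 on every array. In both lists KC4 lay inside that range and no gene was called between the classes. Of 3 club cell markers only Scgb3a2 was called, higher in KC4 with a class difference of -1.07 (SE 0.35, limma adjusted p = 0.0470). Its KC4 arrays overlapped with KC1 and KC3. Among the single lines only KC2 was called against KC4, with a difference of -1.97 (limma adjusted p = 0.00602). The 5-prime control for 18S ribosomal RNA averaged 3305 in KC4 and 414 to 605 in the other lines. It moved with every KC4 difference below, and its part in them was not tested. The median signal per array ran from 94.5 to 128.

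Values are linear signals as deposited, and differences are on the log2 scale after signals under 16 were set to 16. For genes with several probe sets the one with the highest mean was used. A gene was said to vary among the lines when the limma F-test over the 4 lines gave an adjusted p under 0.05 and its highest and lowest line means lay at least 1 apart. Calls between classes, or between a pair of lines, needed the same adjusted p and a difference of at least 1. By the first rule 11 of the 52 genes varied among the lines, 21.2%, against 19.0% of all genes tested. The share of varying genes was thus near that of all genes. The 11 were the ligands Wnt10a and Wnt8b, the receptors Fzd1, Fzd5, Fzd6, Fzd7 and Fzd9, the ligase Rnf43, the nuclear factor Tcf7l1, and the target genes Axin2 and Ccn4.

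**Figure D1:**
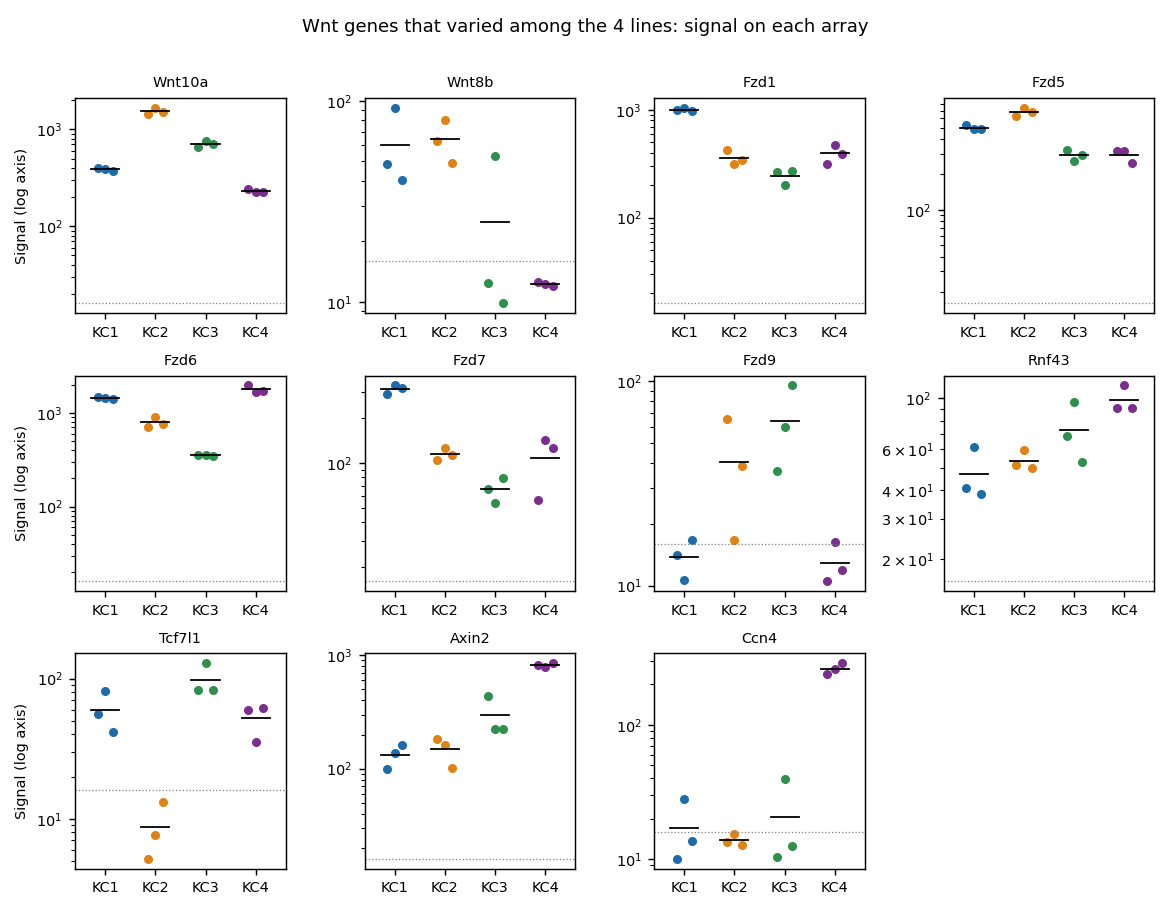
Signal of the 11 varying Wnt genes on each array, on a log axis, with 3 arrays per line as points, the line mean as a bar and the floor of 16 as a dotted line. Axin2 and Ccn4 are highest in KC4, Fzd1 and Fzd7 in KC1, Wnt10a in KC2, and Fzd6 is lowest in KC3.

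Among the 19 ligands, Wnt10a, a ligand known from skin appendages and teeth, gave the clearest differences. Its signal was 401, 389 and 376 in KC1, 1434, 1673 and 1519 in KC2, 663, 768 and 699 in KC3, against 245, 226 and 228 in KC4. No 2 lines overlapped, and their order was KC2, KC3, KC1 and KC4. KC2 lay above KC3 by 1.12 (SE 0.071, limma adjusted p = 2.33e-06), above KC1 by 3.96-fold and above KC4 by 6.61-fold. Wnt10a thus set KC2 apart, meaning that it was called against each other line in the same direction. After median centring of the arrays, the step from KC3 to KC2 was 0.88 (limma adjusted p = 0.000719), under the minimum difference. Such centring moved the median of all genes by 0.24 between these lines.

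Between the classes Wnt10a was higher in the highly metastatic lines by 1.69 (SE 0.058, limma adjusted p = 9.34e-08), and by 1.17 when KC2 was left out. With the line as a random block the same difference had a limma adjusted p of 0.134. Wnt8b, a ligand of the developing brain, was called as well, at 1.46 (SE 0.39, limma adjusted p = 0.0186). Its signal was 48.6, 92.4 and 40.4 in KC1, 63.1, 80.6 and 49.1 in KC2 and 12.4, 53.1 and 9.84 in KC3. The KC4 arrays, at 12.5, 12.3 and 12.1, all lay under the floor, so KC2 was at least 3.94-fold and KC1 at least 3.54-fold higher than KC4. KC3 overlapped with every other line. The Wnt8b class call was lost without any single KC4 array (adjusted p = 0.0602 to 0.0632), without KC1 (0.0533) or KC2 (0.0975), with the line as a random block (0.629) and at a floor of 64 (difference 0.10), and 2 other Wnt8b probe sets were not called.

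Wnt7a and Wnt7b, related ligands of epithelial cells, lay above 64 on every array and differed by less than the minimum. Wnt7b read 3748, 3984 and 3749 in KC1, 3437, 4146 and 3510 in KC2, 4193, 4397 and 3886 in KC3, against 3013, 2942 and 2993 in KC4. Every KC4 array was below every other array. The difference between the classes was 0.38 (SE 0.060, limma adjusted p = 0.00101), and 0.64 on a second probe set (adjusted p = 0.000149). Wnt7a read 1168, 1250 and 1223 in KC1, 1040, 1194 and 924 in KC2, 1795, 1826 and 1515 in KC3, against 1962, 1875 and 2077 in KC4. Here KC4 was above every other array, KC3 next, and KC1 and KC2 overlapped. The class difference was -0.61 (SE 0.082, limma adjusted p = 0.00041), the opposite sign to Wnt7b.

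Wnt7a and Wnt7b passed the F-test and missed only the minimum difference. The remaining 15 ligands did not pass the F-test. Wnt10b, Wnt16, Wnt2, Wnt3, Wnt5b and Wnt8a stayed under a signal of 64 on all 12 arrays, and Wnt2 lay at the floor on 10 of them. Wnt4, a ligand of kidney and Müllerian duct formation, ranged from 129 to 403, Wnt6 from 147 to 289, and Wnt11, a ligand of convergent extension movements, from 67.2 to 122, and in none of the 3 did a line lie wholly above or below all others. Wnt1, Wnt2b, Wnt3a, Wnt9a and Wnt9b fell below 64 on at least 1 array. Wnt9a was 119, 119 and 113 in KC3, above the other 9 arrays (14.9 to 74.5), with a limma adjusted p of 0.0511 in the F-test.

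Wnt5a, the classical ligand of the beta-catenin-independent branch, depended on the probe set. On the set used it was 50.3, 47.7 and 40.6 in KC1, 62.9, 46 and 10.01 in KC2, 38.8, 38.1 and 90.8 in KC3, against 44.5, 60.1 and 50.8 in KC4, and the lines overlapped (limma adjusted p = 0.792). On another set it was 57.9, 71.7 and 89 in KC3 and, for KC4, 31.6, 38.8 and 44.3, against 0.857 to 18.1 in KC1 and KC2. KC3 was above KC4 and KC4 above both other lines, without overlap (adjusted p = 1.33e-05 over all probe sets). A further set gave the same order, with 32.6 to 48.8 in KC3, 17.1 to 25.2 in KC4 and 2.37 to 12.2 in KC1 and KC2 (adjusted p = 0.000432).

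Wnt genes lie in conserved neighbouring pairs, and RefSeq on GRCm38.p6 places Wnt6 beside Wnt10a on chromosome 1 with 0 protein-coding genes between them. While Wnt10a varied 6.61-fold among the line means, Wnt6 varied 1.21-fold (limma adjusted p = 0.692). The 3 other pairs, Wnt3a with Wnt9a, Wnt9b with Wnt3, and Wnt10b with Wnt1, held no gene that varied.

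Of the 10 Frizzled receptors, the seven-pass membrane proteins that bind Wnt ligands, 5 varied among the lines. Fzd6, a receptor of planar polarity and hair patterning, was 1480, 1444 and 1395 in KC1, 699, 907 and 761 in KC2, 351, 354 and 347 in KC3, against 1956, 1671 and 1718 in KC4. The 4 lines did not overlap, with KC3 lowest and KC4 highest. KC3 was below KC4 5.07-fold and below KC2, the nearest line, by 1.16 (SE 0.092, limma adjusted p = 9.22e-06), so Fzd6 set KC3 apart. With median centring the step to KC2 was 0.92, under the minimum.

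A second Fzd6 probe set read 54.4, 39 and 17.8 in KC3, against 212, 233 and 172 in KC4, and set KC3 apart as well, while the remaining set was not called (69.8 to 187, adjusted p = 0.938). Between the classes Fzd6 was lower in the highly metastatic lines, with a difference of -1.28 (SE 0.075, limma adjusted p = 2.4e-06). Without KC3 the difference was -0.74, under the minimum, so the class call depended on KC3. The mean of the 3 probe sets gave -0.90, and the line as a random block a limma adjusted p of 0.331.

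Fzd1 and Fzd7, close relatives that can both signal through beta-catenin, set KC1 apart as higher. Fzd1 was 1006, 1048 and 969 in KC1, 428, 314 and 341 in KC2, 263, 202 and 270 in KC3, against 317, 476 and 391 in KC4. Every KC1 array lay at least at 969, while the other 9 arrays reached at most 476. KC1 was above KC4, the nearest line, by 1.37 (SE 0.17, limma adjusted p = 0.000387) and above KC3 4.15-fold. Fzd7 was 291, 331 and 317 in KC1, 104, 125 and 114 in KC2, 66.7, 53.8 and 78.9 in KC3, against 56.2, 143 and 125 in KC4. KC1 again did not overlap with any other line, whereas KC4 overlapped with KC2 and KC3. KC1 was above KC2 by 1.46 (SE 0.31, limma adjusted p = 0.0073) and above KC3 4.76-fold.

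The KC1 excess was seen on 1 probe set of each gene. The second set of Fzd1 lay between 17.6 and 69.3 and was not called, and that of Fzd7 lay at the floor on all 12 arrays. With the mean of its 2 probe sets Fzd7 no longer set KC1 apart, the step to KC2 being 0.73. Neither gene was called between the classes, with differences of 0.19 for Fzd1 (limma adjusted p = 0.384) and 0.41 for Fzd7 (0.285).

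Fzd5, a receptor of epithelia including the gut, was 523, 490 and 483 in KC1, 634, 740 and 685 in KC2, 325, 261 and 294 in KC3, against 316, 318 and 248 in KC4. KC2 was highest and KC1 next, without overlap, and KC3 and KC4 overlapped. KC2 was 2.34-fold above KC4 (limma adjusted p = 2.96e-05). Its step to KC3 was 1.23, and 0.99 with median centring. A second Fzd5 probe set was not called. Fzd9, a receptor studied mostly in brain and bone, had 4 arrays at the floor. It read 36.4, 59.7 and 95.4 in KC3 and 65.1, 16.7 and 38.5 in KC2 against 10.5 to 16.7 in KC1 and KC4, so KC3 was above both KC1 and KC4, and KC2 overlapped with KC1 and KC3. Its call was lost without either of 2 KC3 arrays and at a floor of 64.

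The remaining receptors were Fzd2, Fzd3, Fzd4, Fzd8 and Fzd10. Fzd4, the receptor of the Norrin ligand, was between 289 and 407 in all lines, Fzd3, a receptor of axon guidance, between 63.6 and 118, and Fzd10 between 71.8 and 370, with overlap among the lines. Fzd8 stayed under 64 on all arrays. Fzd2 differed by 0.82 between its extreme lines on the probe set used, whereas another set gave 408, 370 and 452 in KC2, above every other array (131 to 280), and was called (adjusted p = 3.01e-05 over all probe sets).

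The co-receptor Lrp5 was 692, 659 and 833 in KC2, above every other array (317 to 532), with 0.99 between its extreme lines, just under the minimum. Lrp6, its partner, stayed between 1464 and 1886 on the probe set used, while a further set varied among the lines. On the probe sets used none of the 8 secreted antagonists passed the test, their line means lying at most 0.82 apart. A further set of Sfrp1 varied among the lines. Dkk2 and Dkk4 were under 64 on all arrays. Dkk1, which binds Lrp6, ranged from 24.1 to 93.3, Dkk3 from 62.9 to 161, Sfrp1 from 96.3 to 208, Sfrp2 from 29.8 to 75.3, Sfrp4 from 99.7 to 228 and Sfrp5 from 73.1 to 180. For Dkk1 the arrays of KC2 alone spanned 24.1 to 93.3, so small differences could not be detected.

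Among the receptors of R-spondins and the ligases they control, Lgr4 was 483, 511 and 458 in KC1, 908, 970 and 963 in KC2, 652, 669 and 692 in KC3, against 608, 705 and 725 in KC4. KC2 was highest and KC1 lowest, both without overlap, with 0.97 between them (F-test limma adjusted p = 2.15e-05), under the minimum. Lgr5, a stem cell marker of the gut, lay between 56.5 and 106 in all lines. The ligase Znrf3 lay between 1137 and 1761. Its relative Rnf43, which removes Frizzled receptors from the cell surface, varied, with 40.9, 61.7 and 38.4 in KC1, 51.5, 59.4 and 49.96 in KC2, 68.3, 96.5 and 53 in KC3, against 90.4, 114 and 91.2 in KC4. KC4 was above KC1 by 2.13-fold (limma adjusted p = 0.00884) and overlapped with KC3. The call among the lines was lost without either of 2 single arrays, 1 of KC1 and 1 of KC4, at a floor of 64 and when 16 was added to each signal instead of a floor, and Rnf43 was among the genes the dim filter removed. The class difference of -0.81 (SE 0.20, limma adjusted p = 0.0111) was under the minimum.

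The 3 genes of beta-catenin and its destruction complex were not called. Ctnnb1, the gene of beta-catenin, lay between 11384 and 17247 on the probe set used. Its class difference was 0.27 (SE 0.082, limma adjusted p = 0.0345), and both other sets were also not called. Apc, a scaffold of the destruction complex, was 2073, 2148 and 2142 in KC4, above every other array (1312 to 1913), with a class difference of -0.49 (SE 0.051, limma adjusted p = 7.91e-05). Axin1, the constitutive scaffold, was 905 to 1120 in KC2 and KC3 against 636 to 750 in KC1 and KC4, without overlap, and the class difference was 0.34 (SE 0.078, limma adjusted p = 0.00861). These 3 genes differed among line means by 0.34 to 0.64, under the minimum.

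Of the nuclear partners, Tcf7l1, which mostly acts as a repressor, set KC2 apart as lower. Its signal was 5.16, 7.59 and 13.3 in KC2, all under the floor. It read 55.5, 81.1 and 41.9 in KC1, 82.3, 129 and 82.6 in KC3, and 59.7, 35.4 and 61.3 in KC4, above KC2 without overlap. KC2 was thus at least 3.16-fold lower than KC4 (limma adjusted p = 0.00165), at least 3.58-fold lower than KC1 and at least 5.98-fold lower than KC3. A second probe set, at 15.5 to 28.9 in KC2 and 27.9 to 67.9 elsewhere, was not called, and at a floor of 64 the difference from KC4 was 0.00. Tcf7l2, the main partner of beta-catenin in many epithelia, had 0.65 between its extreme lines (limma adjusted p = 0.0563), although 2 of its other 3 probe sets varied. On 1 of these KC3 read 154, 159 and 187, below every other array (235 to 464). Lef1 lay between 40.7 and 93.5 and was not called (limma adjusted p = 0.17).

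The targets gave the largest differences between the classes. Axin2, a direct target of beta-catenin and itself a brake on the pathway, was 98.9, 138 and 163 in KC1, 184, 162 and 101 in KC2, 434, 225 and 225 in KC3, against 814, 790 and 849 in KC4. Every KC4 array was above every other array, KC3 was intermediate, and KC1 and KC2 overlapped. KC4 was above KC1 6.27-fold, above KC2 5.67-fold and above KC3 2.92-fold (limma adjusted p = 0.00413 for KC3), and KC3 was above KC1 by 2.15-fold (0.0233). The class difference was -2.23 (SE 0.26, limma adjusted p = 0.000143), with an adjusted p of 0.0837 when the line was a random block. The second Axin2 probe set was 59.9, 49.1 and 82 in KC4 and at the floor on the other 9 arrays, and it also set KC4 apart. On it KC3 did not stand between KC4 and the other lines.

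Ccn4, the matricellular protein also known as Wisp1, was 240, 259 and 286 in KC4. It read 10.1, 28 and 13.6 in KC1, 13.5, 15.5 and 12.8 in KC2 and 10.3, 39.3 and 12.6 in KC3, 7 of these 9 arrays being at the floor. KC4 was at least 16.3-fold above KC2, at least 13.6-fold above KC1 and at least 12.1-fold above KC3. The class difference of -3.80 (SE 0.28, limma adjusted p = 9.93e-06) is a bound for the same reason. It was called with the line as a random block too (adjusted p = 0.00587), the only one of the 5 class calls that was. That model took a single correlation within lines (0.56) for all genes, and KC4 is the only poorly metastatic line. The random block therefore cannot show a class effect apart from that line. Setting 7 arrays to the floor also removed spread among the other lines. On a second probe set KC4 read 165, 196 and 219, KC3 28.7, 42.1 and 27.3, and all KC1 and KC2 arrays lay at the floor. At a floor of 64 the class difference was -2.03.

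Nkd1, a feedback inhibitor that binds Dishevelled, was 117, 119 and 112 in KC4, above every other array (54.4 to 95.2), with a class difference of -0.75 (SE 0.14, limma adjusted p = 0.00347), under the minimum. Other genes that are commonly induced by the pathway had class differences of -0.17 (Znrf3, limma adjusted p = 0.0681), -0.24 (Lgr5, 0.319) and 0.34 (Lef1, 0.234). These 3 lay closer to 0 than Axin2, Ccn4, Rnf43 and Nkd1, and whether they differ from those was not tested.

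Between the classes 5 of the 52 genes were called, 2 higher in the highly metastatic lines (3.85%, against 2.87% of all genes) and 3 lower (5.77%, against 2.57%). In all, 5.45% of the genes tested were called. The median class difference was -0.098 over the 52 genes and -0.00088 over all genes, and the median size 0.29 against 0.25. Of the 52 genes 7 set a line apart, 13.5% against 6.30% of all genes. They were Fzd1 and Fzd7 for KC1 (0.863% of all genes set this line apart), Wnt10a and Tcf7l1 for KC2 (1.84%), Fzd6 for KC3 (2.39%) and Axin2 and Ccn4 for KC4 (1.63%). Each line thus had 1 or 2 such genes.

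Between single pairs of lines 5 to 7 of the 52 genes were called. KC1 and KC2 differed in 5 (9.62%, against 5.01% of all genes), among them Wnt3 with its dim signal, and KC1 and KC3 in 5 (9.62%, against 8.21%). For KC1 and KC4 the count was 6 (11.5%, against 5.54%), and for KC2 and KC3 also 6 (11.5%, against 10.8%), Wnt9a being 1 of these. KC2 and KC4 differed in 7 genes (13.5%, against 9.48%) and KC3 and KC4 in 5 (9.62%, against 8.22%). Pairs with KC4 thus held 5 to 7 called genes and pairs among the highly metastatic lines 5 or 6.

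**Figure D2:**
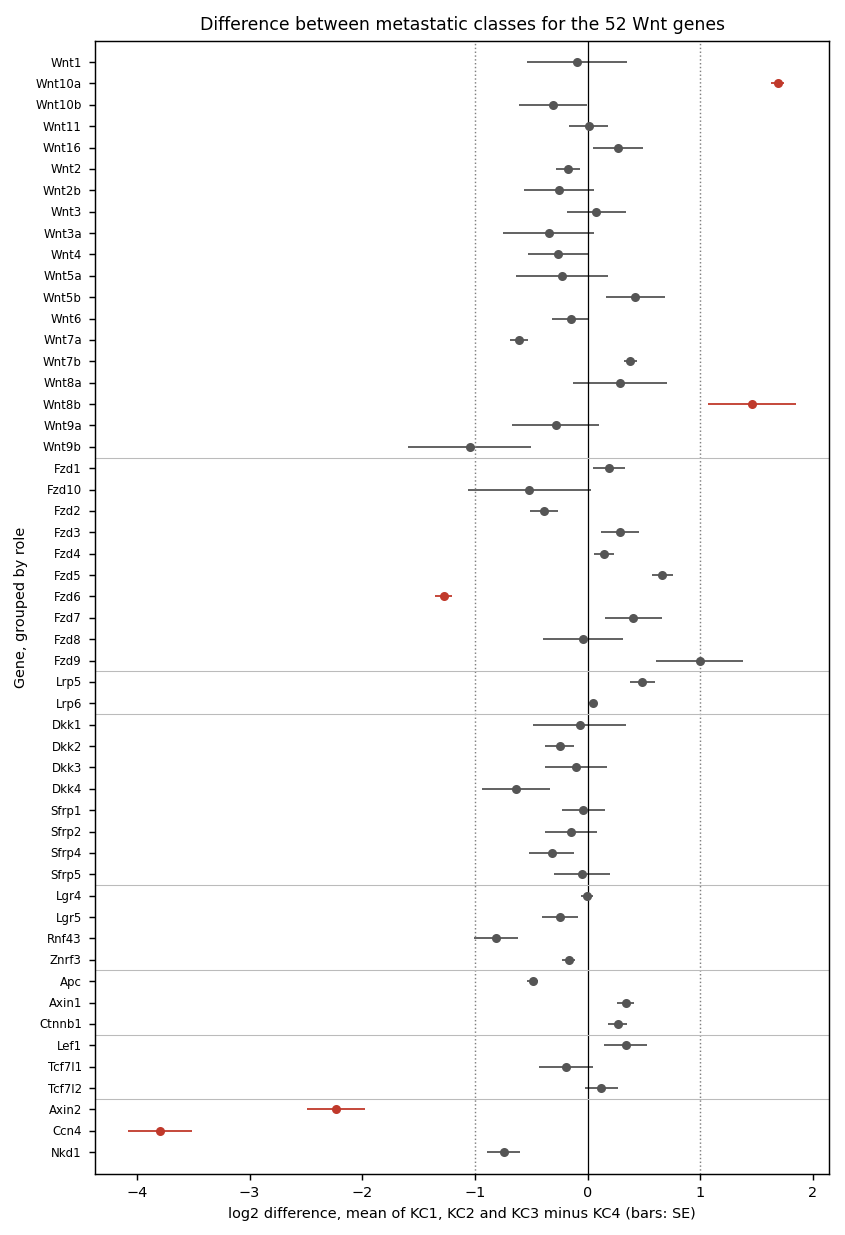
Class difference of each of the 52 genes, the average over the highly metastatic lines minus KC4 on the log2 scale, with its SE, grouped by role; dotted lines mark the minimum of 1 and called genes are red. Ccn4, Axin2 and Fzd6 lie to the left at -3.80, -2.23 and -1.28, and Wnt10a and Wnt8b to the right at 1.69 and 1.46.

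Genes with several probe sets were read on all of them. The 52 genes had 108 probe sets, and of the 56 not used above 10 varied among the lines. These 10 belonged to Axin2, Ccn4, Fzd6, Fzd2, Lrp6, Sfrp1, Tcf7l2 (2 sets) and Wnt5a (2 sets). The share of 19.0% over all genes is for the brightest set of each gene. No share over all probe sets is given here, so the count does not measure an excess. For Axin2, Ccn4 and Fzd6 the additional set went in the same direction as the one used, and for the other 5 genes the set used was not called.

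**Figure D3:**
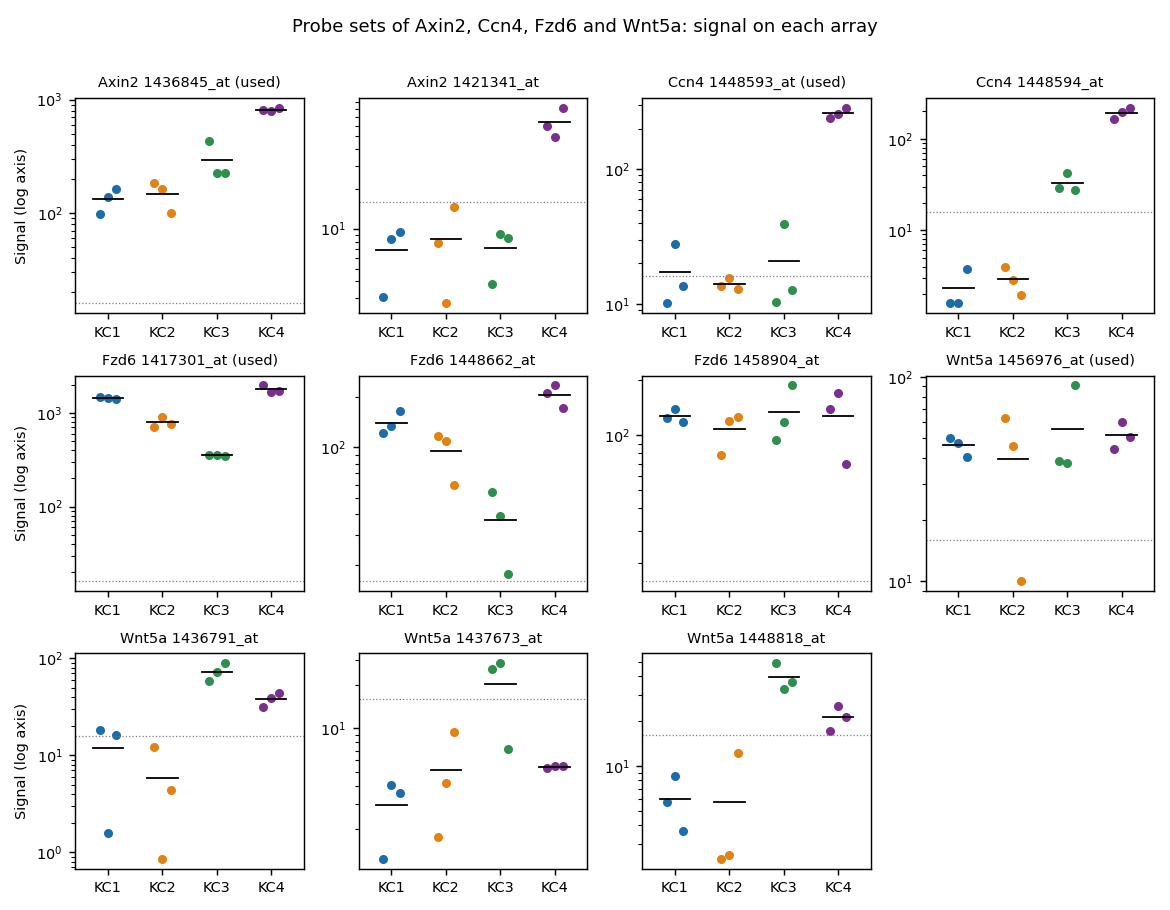
Signal on each array for every probe set of Axin2, Ccn4, Fzd6 and Wnt5a, on a log axis, with 3 arrays per line as points, the line mean as a bar and the floor of 16 as a dotted line. Both sets of Axin2 and of Ccn4 are highest in KC4, 2 of 3 Fzd6 sets are lowest in KC3, and the Wnt5a set used shows none of the KC3 excess of the 2 sets that varied.

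Further genes of the pathway were read from 5 lists that hold none of the 52 genes. Of 120 measured genes 37 varied among the lines, 30.8% against 19.0% of all genes. Between the classes the mean over KC1 to KC3 was called higher than KC4 for 10 genes and lower for 7. Together these were 14.2%, against 5.45% of all genes. Such a mean can be moved by 1 line, as by KC3 for Nkd2 below. Because the lists were chosen with earlier results of these data known, the shares do not measure an excess. The list of secretion factors, co-receptors and membrane modulators had 25 measured genes. By the mean over KC1 to KC3, 2 were called higher than KC4 (2.87% of all genes were) and 1 lower (2.57% of all genes). Wls, the cargo receptor that carries Wnt ligands to the cell surface, was 1037, 1227 and 1366 in KC1, 763, 666 and 703 in KC2, 56.6, 56.8 and 76.2 in KC3, against 1964, 2376 and 2145 in KC4. The 4 lines did not overlap, and KC3 was lowest by far, so that Wls set KC3 apart in the same direction as Fzd6. The class difference was -2.52 (SE 0.12, limma adjusted p = 5.28e-07). That mean takes in the low KC3 values, and its size without KC3 is not given here.

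Lgr6, a further R-spondin receptor, was lowest in KC4 at 283 ± 43.8 (SD, n = 3) against 1020 ± 128 in KC1, 512 ± 53.1 in KC2 and 567 ± 30.7 in KC3. Tspan12, a partner of Fzd4, set KC2 apart at 241 ± 62.1 against 9.97 ± 4.02 to 32.5 ± 5.48 in the other lines. In the list of destruction complex and cytoplasmic relay, 4 of 26 genes were called between the classes, each lower in KC4 than over the other lines, where 2.87% of all genes were. All 4 are known as modulators of the relay rather than as subunits of the destruction complex. Cxxc5, a Dishevelled-binding inhibitor, was 136 ± 63 in KC4 against 648 ± 40, 970 ± 92.7 and 773 ± 114 in KC1, KC2 and KC3. Dact2, likewise a Dishevelled-binding protein, was 16.8 ± 5.88 in KC4 against 263 ± 59, 63.5 ± 16 and 146 ± 16.6. Nkd2, the relative of Nkd1, set KC3 apart at 541 ± 68 against 41.2 ± 15 to 85.4 ± 42.9. Frat2, which binds the kinase Gsk3, was called at 1.24 (SE 0.33, limma adjusted p = 0.0178).

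In the list of nuclear cofactors 2 of 22 genes were called between the classes, 1 in each direction, against 5.45% of all genes. The co-repressor Tle4 was 443 ± 57 in KC4 against 829 ± 244 to 1436 ± 117, and Sox7, which can restrain beta-catenin, was 323 ± 5.21 against 42.3 ± 18.3 to 163 ± 14.1. Cby1, an inhibitor that binds beta-catenin, set KC3 apart as lower at 44.8 ± 6.54. Of 16 planar cell polarity genes 2 were called between the classes, against the same 5.45%. Celsr1, a seven-pass cadherin, was higher by 1.16 (SE 0.076, limma adjusted p = 4.46e-06). Prickle1 was called at -1.13 (SE 0.31, limma adjusted p = 0.0206) and set KC2 apart at 36.6 ± 15.6 against 98.8 ± 22.9 to 273 ± 74.3.

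Of 31 genes known elsewhere as beta-catenin targets, 15 varied among the lines (19.0% of all genes did) and 6 set a line apart (6.30%). The mean over KC1 to KC3 was called higher than KC4 for 2 (2.87% of all genes) and lower for 4 (2.57%). The median class difference over the list was 0. Bmp4 and Fst, a BMP ligand and an activin antagonist, set KC4 apart as higher, as Axin2 and Ccn4 did. Myc was highest in KC3 (14763 ± 10.8 against 3218 ± 205 to 4967 ± 404), where Axin2 was intermediate. Tcf4, a basic helix-loop-helix factor distinct from Tcf7l2, was 9.04 ± 7.02 in KC2 against 375 ± 50.5 to 519 ± 22.1, the line in which Tcf7l1 was also lowest.

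**Figure D4:**
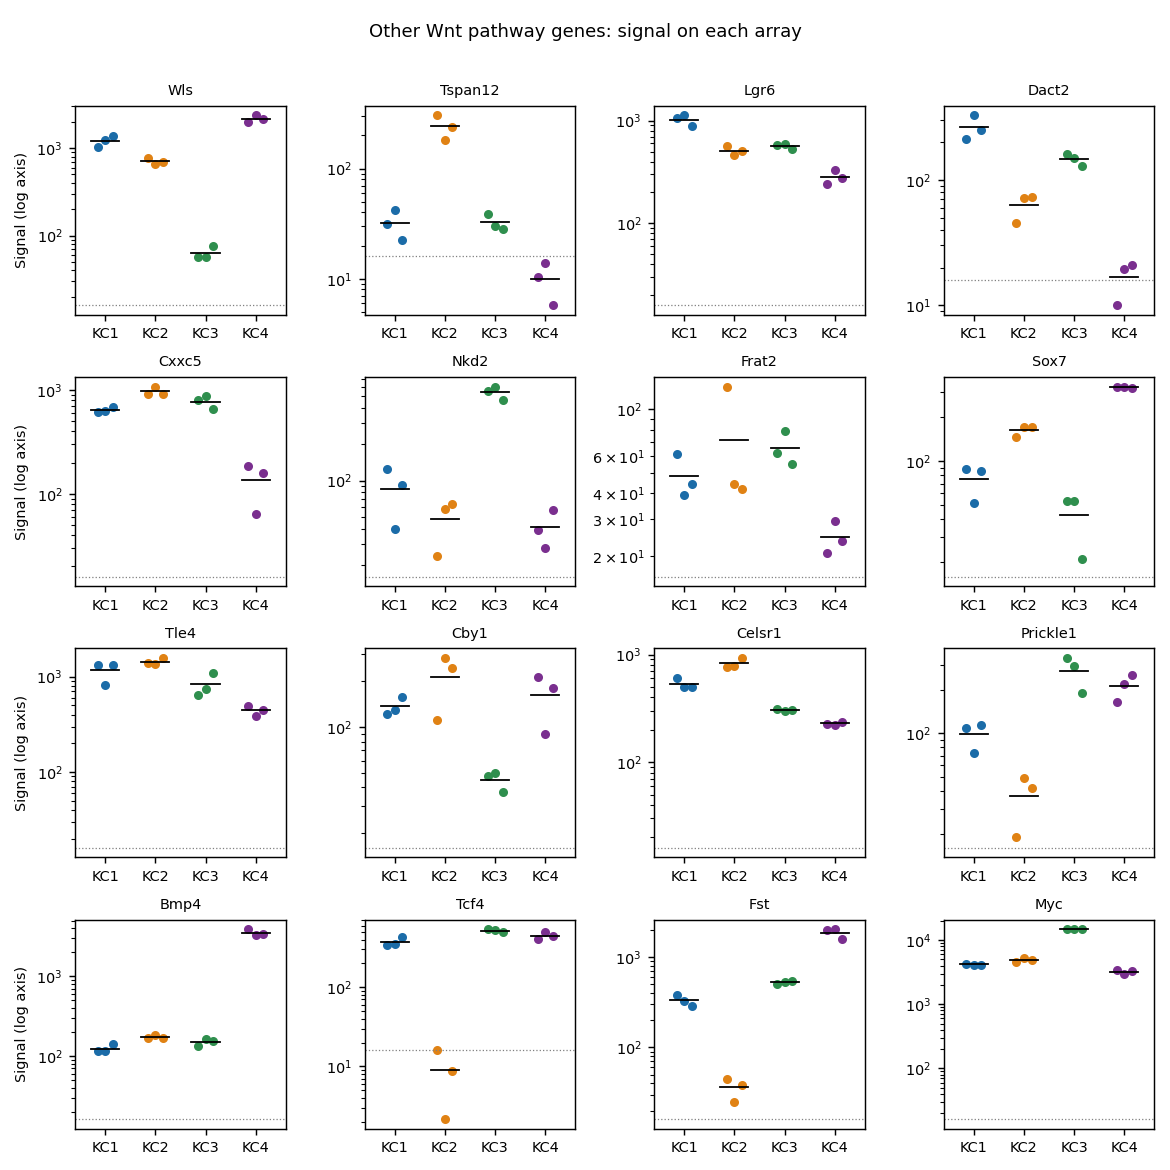
Signal on each array for 16 other genes of the pathway, on a log axis, with 3 arrays per line as points, the line mean as a bar and the floor of 16 as a dotted line. Wls is lowest and Nkd2 highest in KC3, Dact2 and Cxxc5 are lowest in KC4, and Tspan12 is highest in KC2.

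Of the 52 genes 28 fell under 64 on at least 1 array. Transcript levels do not show how much beta-catenin is active, and the p-values measure the spread between biological replicates of 4 lines, not between tumours.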

How the data were processed

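Biotin-labelled total RNA was put on arrays; extraction and labelling followed Affymetrix, per the labels. As deposited, each of 45101 probe sets has a linear intensity on every array. How these intensities were computed and whether background was subtracted was not given in the sources used here. Every array had been scaled, as its values show, to the same mean after trimming 2% at each end (500.002 to 500.003), so a change in total messenger RNA would not be seen.

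Of the probe sets, 64 controls were left out, 34945 had 1 gene symbol in the platform annotation, 932 several and 9160 none. Of those with 1 symbol 34741 matched RefSeq (GRCm38.p6) and 0 symbols changed. Signals under 16 were set to 16, log2 values taken, and the probe set with the highest mean kept for each of 18193 genes. All 12 arrays entered a single limma 3.58.1 model (R 4.3.3) with a term for each line, moderated by eBayes. The p-values were adjusted by Benjamini-Hochberg over all genes. The procedure was tested on simulated data with differences planted in KC4 only and in brighter genes only. Recovery of differences in dim genes was thus not covered. Alternatives were the replicate block, leaving out arrays or lines, probe-set means, a dim filter, quantile normalization, median centring, another floor or a pseudocount, another prior and a random line block. Folds are 2 to the power of the log2 difference.

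The genes of the rule and the pathway and marker lists were chosen with earlier results of these data known. Every gene of the rule is accounted for. Those that varied, were called between classes or set a line apart are given by array. From each pathway list up to 4 called genes are named, by the largest class difference or smallest pair difference. Figures were drawn with matplotlib 3.10.9.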

Additional observations from a re-analysis of the deposited data

How the results depend on the processing

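Precision was limited by 3 arrays per line and by dim signals. The class differences of single genes without KC1, KC2 or KC3 were added after seeing the data. With the replicate number as a block, 11 genes varied among the lines and 2 were higher and 3 lower between classes, as without it, and no call changed. The numbers did not pair the arrays: deviations of 18 same-numbered pairs had a median correlation of 0.014, and those of 36 others 0.00058. The count of 11 was 5 without the dimmer 50% of genes, where fewer genes were tested, and 7 at a floor of 64. It ran from 10 to 14 when single arrays were left out. The 2 genes higher between classes became 1 with the mean of probe sets, without the dimmer 50%, at a floor of 64 and without KC2, 0 with the line as a random block, and 1 to 3 without single arrays. The 3 lower became 1 with the line as a random block, 2 with the mean of probe sets and without KC3 (Fzd6 lost in both), 2 without the dimmer 50% (Ccn4 not tested), and stayed 3 without any single array. The counts of genes setting a line apart were, without any single array, 2, 2, 1 and 2 for KC1 to KC4. For KC1 the count was 1 with the mean of probe sets and without the dimmer 50% (Fzd7 lost in the first and not tested in the second). For KC2 it was 1 without the dimmer 50%, with median centring and at a floor of 64, and for KC4 1 without the dimmer 50%. For KC3 it was 0 with the mean of probe sets and with median centring. Of the class differences recomputed for the 11 varying genes, 241 kept their side of the threshold, 13 lost a call, 4 gained one (all Fzd9) and 0 called values changed sign. Quantile normalization lost none of the 11 genes and gained Wnt3, Wnt9a and Lgr4. Median centring also lost none and gained Wnt3 and Wnt9a. Both gained Fzd9 as a class call. The mean of probe sets lost Wnt8b and gained Wnt5a and Tcf7l2, and a pseudocount or another prior gained Wnt9a.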
